A study of Mus musculus with 10 samples.

Results

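The flavin-containing monooxygenases are a small family of liver enzymes, and 4 of their genes, Fmo1, Fmo2, Fmo4 and Fmo5, were followed here among 56748 gene rows of a mouse liver RNA-seq count table. The 4 were taken by gene name. The family was selected on earlier results of the same contrast between floxed control and knockout livers, so its differences in that contrast are given below as a description, with no p-value and no weight as evidence. All 4 rows were found once in the table and all 4 passed the filter on low counts. The table holds 3 other rows of the family. They had at most 10 counts in any library and 39 counts in the flox and 7 in the HKO libraries in total, 1 of them had no count at all, and none passed the filter.

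The samples were livers of mice given a diet high in fat and fructose for 4 months, a model of metabolic dysfunction-associated steatohepatitis. The flox group, with the genotype label ACSS2-flox, holds 5 libraries and serves as the control, and the HKO group, labelled ACSS2-HKO, holds 5 libraries from mice in which Acss2 was to be deleted in liver cells. Acss2 encodes an acetyl-CoA synthetase of cytosol and nucleus that works on acetate. The labels name no Cre driver and no deleted exons, nor the sex, age or strain of the mice, and they do not say that each library came from its own animal. Total counts per library ran from 15413648 to 19275358. Acss2 stood at 56.4 to 129.0 CPM (read counts scaled to a common library size, with TMM factors) in flox and at 40.2 to 58.9 CPM in HKO, so the targeted transcript was still read in every HKO library and 1 HKO library lay above the lowest flox libraries. Its log2 fold change was -0.71 ± 0.21 (SE, edgeR adjusted p = 0.0858). The livers carried the markers of hepatocytes in all libraries (10 of 10 detected, summed level 92720 to 154100 CPM), and 3 markers of lung epithelium, a tissue known for Fmo2, summed to at most 0.396 CPM.

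Flavin monooxygenases sit in the membrane of the endoplasmic reticulum, bind FAD, take electrons from NADPH and add 1 atom of oxygen to soft nucleophiles such as the nitrogen or sulfur of amines, thiols and many drugs. They work beside the cytochromes P450, but hold their activated oxygen on the flavin before a substrate arrives. In the liver they are known for clearing foreign and dietary amines and sulfides. FMO1 also oxidises hypotaurine to taurine, FMO2 is best known from the lung, FMO4 is the least characterised of the 4, and FMO5 differs from the others in its chemistry, inserting oxygen next to carbonyl groups (Baeyer-Villiger oxidation) more readily than it oxidises amines.

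The shared design of the family shows in the first 90 coding bases of Fmo2, Fmo4 and Fmo5, printed below from GENCODE M21 transcripts, 5′ to 3′ on the coding strand. Capitals mark the 6 codons of the first glycine-rich motif (glycine, any residue, glycine, any 2 residues, glycine), which belongs to the fold that binds FAD. It begins at codon 9 in Fmo2 and Fmo4 and at codon 10 in Fmo5.
Fmo2: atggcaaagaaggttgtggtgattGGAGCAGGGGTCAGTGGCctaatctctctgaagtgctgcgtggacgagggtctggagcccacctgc
Fmo4: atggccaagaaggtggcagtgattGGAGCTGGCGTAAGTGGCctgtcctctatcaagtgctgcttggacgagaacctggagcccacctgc
Fmo5: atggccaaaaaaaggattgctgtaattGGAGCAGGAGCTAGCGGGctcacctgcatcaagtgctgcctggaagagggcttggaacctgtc
Within the 18 bases of the motif, Fmo2 and Fmo4 had 15 in common, and Fmo5 shared 13 with Fmo2 and 12 with Fmo4. A second run of the same glycine pattern, at the place known for NADPH binding in this family, was found at codon 191 in Fmo4 and at codon 192 in Fmo5. The same letters were not met a second time in the Fmo2 reading frame. The coding sequences are of nearly equal length, with 535 codons before the stop in Fmo2, 560 in Fmo4 and 533 in Fmo5.

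The members are old paralogues and not near-identical copies, which bears on how far their reads can be told apart. Over the whole coding sequence Fmo2 and Fmo4 had 67.2% of aligned bases identical, and Fmo5 had 65.2% in common with each of them. Of all stretches of 50 bases in the transcripts of Fmo2 and of Fmo4, 0 occurred in a transcript of another gene. In Fmo5 0.43% did, and in Fmo1 7.02%. None of the stretches was shared between 2 members. In the table's coordinates no other gene overlapped any of the 4. Fmo4, Fmo1 and Fmo2 lie next to one another on the minus strand of chromosome 1, at 162620757 to 162641541, 162657130 to 162694179 and 162701886 to 162726295. Fmo5 lies apart, on the plus strand of chromosome 3 at 97536120 to 97562598. These are the table's own coordinates, whose build is uncertain, since the submitters' processing notes name mm10 and only 2.83% of the gene IDs shared with GENCODE M21 (on GRCm38) had the same start and end there.

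Fmo5 was the most abundant member. Its gene (ENSMUSG00000028088) was read at 1421, 1419, 884.1, 805.9 and 1112 CPM in the flox libraries (replicates 1 to 5). In the HKO libraries, in the same order, it was read at 771.6, 663.9, 679.1, 851.8 and 721.4 CPM. Flox replicates 1 and 2 stood far above all other libraries, while flox replicates 3 and 4 came close to the HKO range, and the groups overlapped because HKO replicate 4 lay above flox replicate 4. The means were 1128 ± 288.9 CPM in flox and 737.6 ± 76.3 in HKO (SD, n = 5 each), so that HKO stood at 65.4% of flox, a log2 fold change of -0.61 ± 0.18 (SE). The spread of the gene was unequal, with an SD of log2 CPM of 0.38 in flox and 0.15 in HKO. Whether HKO livers hold fewer cells with this transcript or less of it per cell cannot be told apart in whole tissue, here or for the other genes.

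Fmo1 (ENSMUSG00000040181), the classical amine and hypotaurine oxidase, came second. Its flox libraries, from replicate 1 to 5, held 286.2, 319.0, 281.5, 226.0 and 280.9 CPM, and its HKO libraries 212.6, 199.8, 161.7, 164.6 and 199.4 CPM. All 5 HKO libraries lay below all 5 flox libraries, with flox replicate 4 and HKO replicate 1 nearest to each other. The mean went from 278.7 ± 33.4 CPM in flox to 187.6 ± 23.0 in HKO, or 67.3% of flox, a log2 fold change of -0.57 ± 0.14 (SE). The SD of log2 CPM of Fmo1 was 0.18 in both groups, against a median of 0.33 over all tested genes with the groups pooled.

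Fmo2 (ENSMUSG00000040170), the form best known from the lung, was present at a low but well counted level, with 2507 counts over the flox and 1357 over the HKO libraries. By replicate from 1 to 5, its level was 31.7, 24.3, 26.1, 26.2 and 32.7 CPM in flox, and 18.1, 18.7, 13.9, 11.8 and 21.2 CPM in HKO. The groups did not overlap, and the lowest library was HKO replicate 4, the one with the highest Fmo5 of its group. The mean was 28.2 ± 3.75 CPM in flox and 16.7 ± 3.83 in HKO, which is 59.4% of flox and a log2 fold change of -0.75 ± 0.17 (SE).

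Fmo4 (ENSMUSG00000026692) had nearly the same mean in both groups. The flox libraries had 9.83, 9.36, 11.9, 15.04 and 8.50 CPM and the HKO libraries 14.2, 14.6, 4.55, 12.6 and 7.98 CPM, each from replicate 1 to 5. The groups overlapped, with HKO replicates 3 and 5 below all flox libraries and flox replicate 4 above all HKO libraries. In flox replicate 4, Fmo1 and Fmo5 were at their lowest in flox. HKO replicate 3, the lowest library of all, rests on 69 counts. The means were 10.9 ± 2.62 and 10.8 ± 4.38 CPM, a log2 fold change of -0.02 ± 0.28 (SE), which was 0.18 without HKO replicate 3. Whether the difference of Fmo4 departs from those of its neighbours Fmo1 and Fmo2 was not tested.

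**Figure D1:**
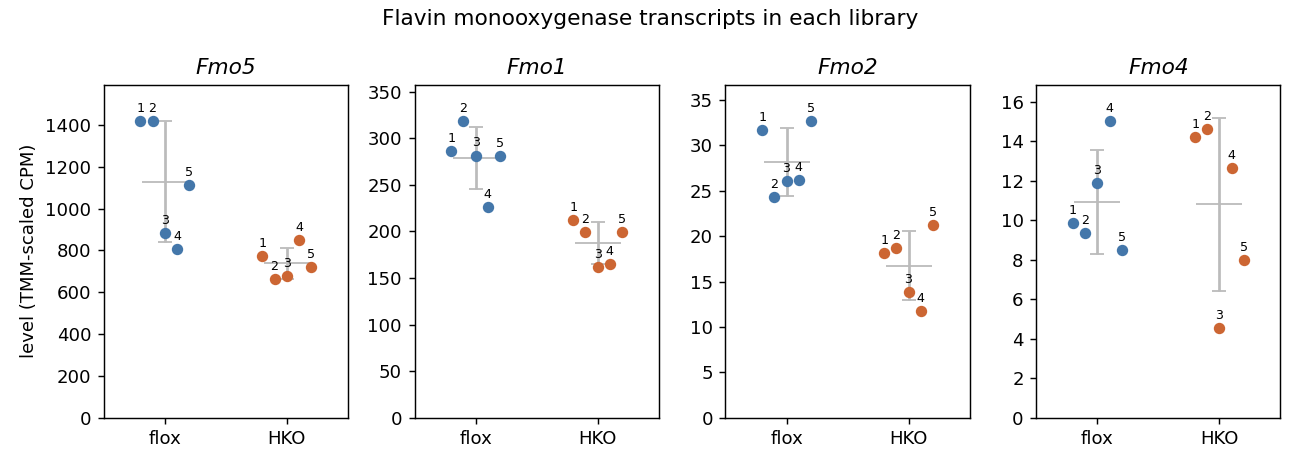
Level of each gene in TMM-scaled CPM (vertical axes, each from 0) for the 5 flox and 5 HKO libraries. Points are libraries labelled with their replicate number, and grey bars are the mean and SD of each group. The groups do not overlap for Fmo1 and Fmo2, overlap at 1 HKO library (851.8 CPM) for Fmo5, and overlap over most of their range for Fmo4.

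In the fit over all 14068 tested genes, 2 of the 4 members, Fmo1 and Fmo2, were called at an adjusted p under 0.05 by the quasi-likelihood test of edgeR, both lower in HKO. Of all tested genes 3.99% were called, 3.07% lower and 0.917% higher in HKO. In the same 2 members every HKO library lay below every flox library, as in 3.46% of all tested genes. Because this contrast brought the family forward, nothing is read from these counts. The call of Fmo2 was kept in 8 of the 10 fits that left out 1 library. It was lost without flox replicate 5 or HKO replicate 4, where 2.54% and 2.01% of tested genes were called. The call of Fmo1 was kept in only 1 of the 10, the fit without flox replicate 4. Fmo5 was called in that same fit, by DESeq2 and with library totals alone, and in none of the other 12 alternatives. Those fits called 3.83%, 7.26% and 4.74% of tested genes, in that order. The sizes moved little. Over the 15 alternatives the log2 fold change ran from -0.67 to -0.52 for Fmo1, from -0.86 to -0.65 for Fmo2, from -0.71 to -0.52 for Fmo5 and from -0.15 to 0.18 for Fmo4.

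**Figure D2:**
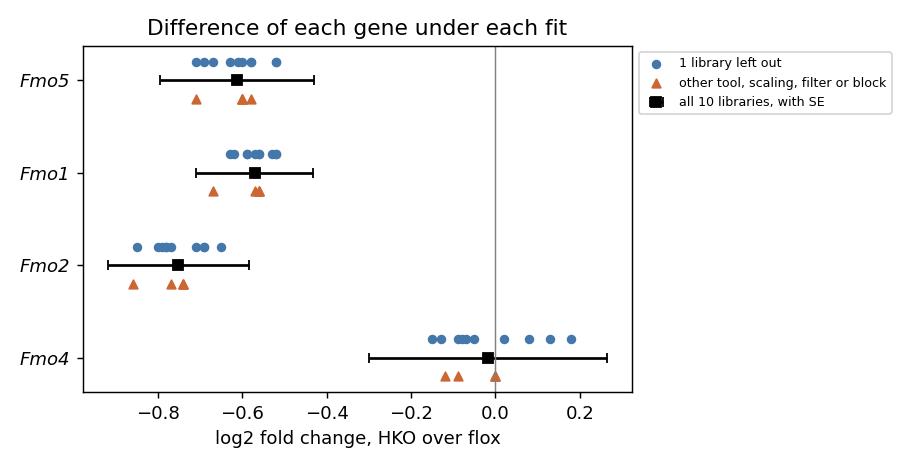
Log2 fold change of HKO over flox (horizontal axis) for each gene. Squares with bars are the values from all 10 libraries with their SE, circles are fits without 1 library, and triangles are fits with another tool, scaling, filter or the replicate block. Fmo5, Fmo1 and Fmo2 stay between -0.86 and -0.52 throughout, and Fmo4 scatters on both sides of 0, from -0.15 to 0.18.

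Per kb of the table's gene length, the 4 levels lay far apart. In flox, Fmo5 had 198.8 ± 50.9 CPM per kb and ranked 223 among the 14068 tested genes. Fmo1 had 44.2 ± 5.30 CPM per kb (rank 942), Fmo2 5.03 ± 0.669 (rank 5156) and Fmo4 2.95 ± 0.706 (rank 7072). Fmo5 stood above Fmo1, and Fmo1 above Fmo2, in 5 of 5 libraries of each group. Fmo2 was above Fmo4 in 5 of 5 flox libraries but in only 2 of 5 HKO libraries, where the means of 2.98 ± 0.682 and 2.91 ± 1.18 CPM per kb did not differ beyond their spread.

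The summed level of the 4 genes was lower in every HKO library than in every flox library. Because the contrast of HKO and flox brought the family forward, nothing is read from that separation. Fmo5, which made up most of the sum, had overlapping groups. The share of each gene in the sum differed between the groups by less than its SD. The sum was 251.0 ± 54.7 CPM per kb in flox (186.6 to 307.5) and 165.6 ± 13.7 in HKO (149.0 to 181.7). Fmo5 made up 78.7% ± 3.24 of it in flox and 78.4% ± 3.01 in HKO, and Fmo1 made up 17.99% ± 2.51 and 18.04% ± 2.34. Fmo2 gave 2.07% ± 0.439 and 1.82% ± 0.446, and Fmo4 1.27% ± 0.585 and 1.74% ± 0.680. These shares depend on the length used. With the length of the transcript that has the longest coding sequence, Fmo5 made up 62.4% in flox and 62.1% in HKO, and Fmo1 34.3% and 34.4%.

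**Figure D3:**
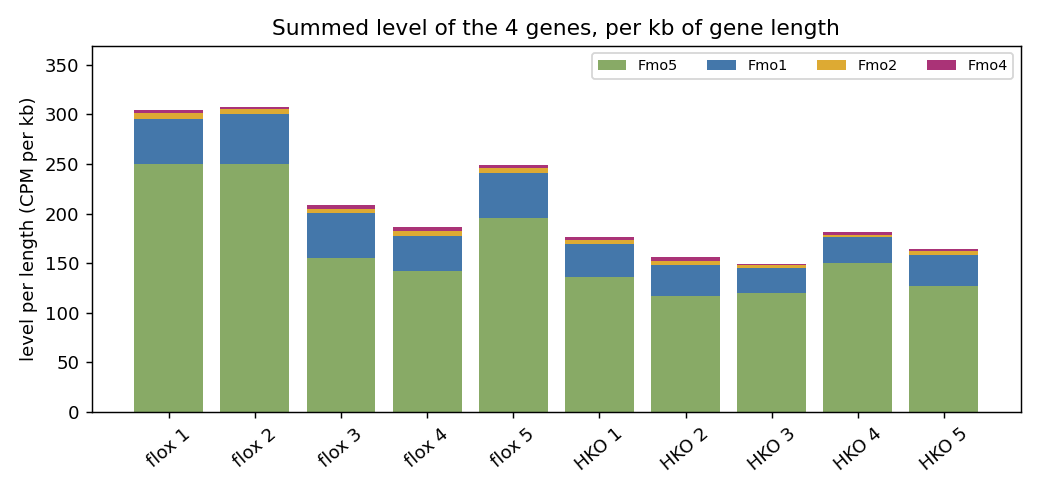
Summed level of the 4 genes in each library, in TMM-scaled CPM per kb of the table's gene length (vertical axis), stacked by gene. The 5 HKO bars end between 149.0 and 181.7 and the 5 flox bars between 186.6 and 307.5, with Fmo5 filling most of each bar.

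The enzymes need FAD and NADPH, and genes supplying them were read from the same fit. Of 5 genes of riboflavin transport and FAD synthesis, 4 were tested and 0 were called by edgeR (0 at an unadjusted p under 0.05, and 0 by DESeq2), with a median log2 fold change of 0.10 against 0.01 over all tested genes. For Rfk, the kinase that starts FAD synthesis from riboflavin, the means were 48.5 ± 14.6 and 37.0 ± 5.80 CPM (-0.39 ± 0.19 on the log2 scale, edgeR adjusted p = 0.328). Of 10 genes of NADPH supply, 2 fell and 0 rose, with a median of -0.18. Pgd, which makes NADPH in the pentose phosphate pathway, fell from 28.5 ± 8.68 CPM to 14.7 ± 1.71 (-0.96 ± 0.19 on the log2 scale, edgeR adjusted p = 0.0156). Idh2, the mitochondrial NADP-dependent isocitrate dehydrogenase, fell from 135.9 ± 28.8 CPM to 78.3 ± 7.05 (-0.79 ± 0.15 on the log2 scale, edgeR adjusted p = 0.0137). G6pdx encodes an earlier enzyme of the pentose phosphate pathway than Pgd, and its value of -0.80 ± 0.31 on the log2 scale missed the threshold (edgeR adjusted p = 0.199). Both calls were kept in all 15 alternatives. The 8 genes not called ran from -0.80 (G6pdx) to 0.32 (H6pd) on the log2 scale, with Idh1 at -0.11 and Me1 at -0.14. H6pd, Idh1 and Me1 were named after their values were seen. The summed level of the NADPH list overlapped between the groups, at 1903 to 2990 CPM in flox and 1754 to 2129 in HKO. These data hold no measure of NADPH itself.

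Around hypotaurine, the natural substrate of FMO1, 0 of 5 tested genes of taurine synthesis, transport and use were called by edgeR (0 at an unadjusted p under 0.05, and 0 by DESeq2), and their median log2 fold change was -0.03. Cdo1, the cysteine dioxygenase that feeds hypotaurine synthesis, stood at 1913 ± 393.0 CPM in flox and 1877 ± 478.6 in HKO (log2 fold change -0.03 ± 0.21).

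Among 13 other oxidases, reductases and hydrolases of foreign compounds, 1 fell and 0 rose, with a median log2 fold change of -0.26. The quinone reductase gene Nqo1 fell from 10.9 ± 3.94 CPM to 5.29 ± 0.917 (-1.05 ± 0.23 on the log2 scale, edgeR adjusted p = 0.0230). That call was lost without HKO replicates 2, 4 or 5 (edgeR adjusted p = 0.0504, 0.0599 and 0.0565). DESeq2 called 5 of the 13. The 4 others were named after their values were seen. Cyb5r3, a reductase of cytochrome b5, and Cyb5b, itself a cytochrome b5, were lower in HKO. Ephx2, a soluble epoxide hydrolase, and Aox3, an aldehyde oxidase, were higher in HKO. Por, the reductase that feeds the cytochromes P450, stood at 437.2 ± 114.7 CPM in flox and 504.1 ± 167.4 in HKO (edgeR adjusted p = 0.745).

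Of 16 transcription factors and hormone receptors of liver, 1 fell and 0 rose, with a median of 0.01. Ahr, the receptor for dioxins and other planar aromatic compounds, fell from 92.3 ± 20.8 CPM to 50.2 ± 4.75 (-0.88 ± 0.16 on the log2 scale, edgeR adjusted p = 0.0109), a call kept in all 15 alternatives.

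Genes that differ between male and female mouse livers also differed between the groups. The labels do not give the sex of these mice. Of 12 male-biased genes, 8 rose and 0 fell (median log2 fold change 1.86). Of 14 female-biased genes only 7 passed the filter on low counts, and of these 4 fell and 0 rose (median -1.27). Among those not tested, Cyp2b13 had 1488 counts over all 10 libraries, and each of the others had at most 46 (A1bg). Cyp2b13 and A1bg were named after their values were seen. The oxysterol hydroxylase gene Cyp7b1 rose from 53.9 ± 16.9 to 249.3 ± 63.6 CPM (edgeR adjusted p = 0.000841), and Cyp2b9, a female-biased cytochrome, fell from 329.4 ± 197.5 to 1.85 ± 1.76 CPM (edgeR adjusted p = 0.000913). The prolactin receptor gene Prlr fell from 207.3 ± 22.9 to 130.6 ± 23.4 CPM (edgeR adjusted p = 0.0256), a call lost without HKO replicates 1, 2 or 4. The summed level of the male-biased list was 1246 to 3482 CPM in flox and 4695 to 7326 in HKO, and that of the female-biased list 295.5 to 990.5 and 122.6 to 199.7. Within flox, replicate 4 had the highest male-biased and the lowest female-biased sum, and also the lowest Fmo5 and Fmo1, but the highest Fmo4. Fmo2 had its lowest flox level in replicate 2, the library with the highest female-biased and the lowest male-biased sum. The count of male-biased genes that rose was 5 when flox replicate 1, flox replicate 2 or HKO replicate 2 was left out, and 4 when flox replicate 5, HKO replicate 1 or HKO replicate 4 was. Their part in the differences of the Fmo genes was not tested.

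Macrophage markers differed between the groups too. All 13 fell (median -1.71 on the log2 scale), with 0 markers without a count. Their summed level was 316.2 to 755.3 CPM in flox and 119.2 to 250.3 in HKO. Within flox it was highest in replicate 5 (755.3 CPM) and replicate 4 (707.5 CPM). Replicate 5 had the highest Fmo2 and the lowest Fmo4 in flox. Replicate 4 had the lowest Fmo1 and Fmo5 and the highest Fmo4. Of 10 hepatocyte markers 0 were called by edgeR (2 at an unadjusted p under 0.05, and 1 by DESeq2), with a median of 0.22 and sums of 92720 to 147600 CPM in flox and 121300 to 154100 in HKO. Of 6 periportal hepatocyte markers 0 were called by edgeR (1 at an unadjusted p under 0.05, and 0 by DESeq2), but their summed level was 3410 to 4283 CPM in flox and 4565 to 6256 in HKO, without overlap, and most of it came from Pck1 (2506 ± 564.2 and 3516 ± 669.8 CPM), named after its values were seen. Of 10 sinusoidal endothelial markers 1 fell (174.5 to 265.8 and 122.7 to 275.5 CPM in sum), and 0 passed without flox replicate 4, flox replicate 5, HKO replicate 1, HKO replicate 2 or HKO replicate 4. In addition, of 10 stellate cell and fibroblast markers 1 fell (164.6 to 331.0 and 138.7 to 213.2 CPM in sum). The part of these cell types in the levels of the Fmo genes was not tested.

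**Figure D4:**
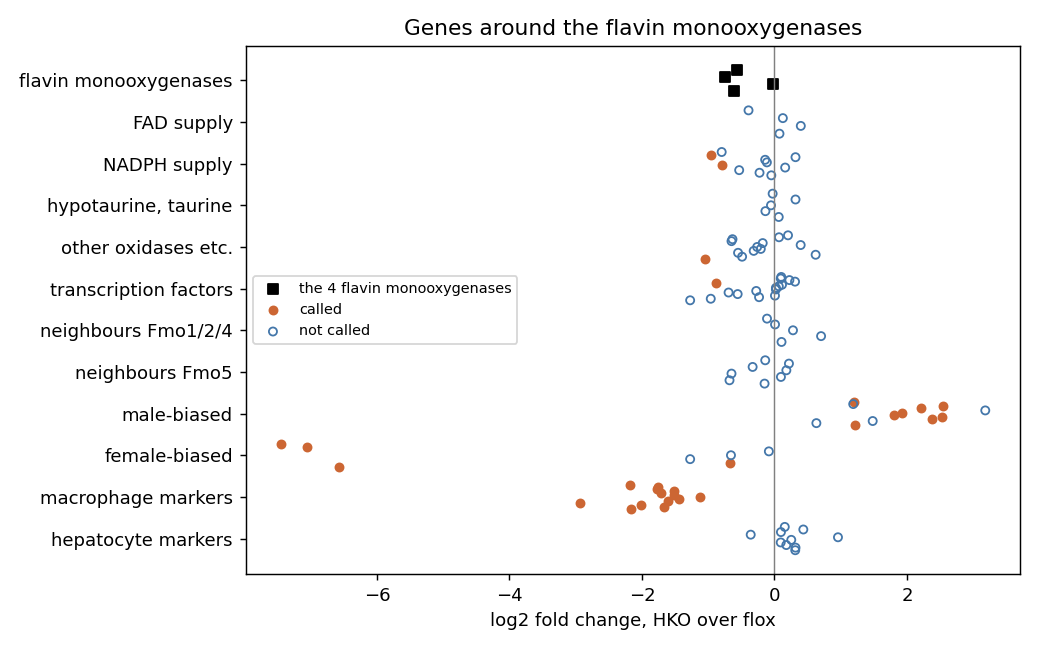
Log2 fold change of HKO over flox (horizontal axis) for the 4 flavin monooxygenase genes (squares) and for the tested genes of 11 other groups (circles, filled where the edgeR adjusted p was under 0.05). The called genes of NADPH supply, Pgd and Idh2, lie at -0.96 and -0.79, while the male-biased, female-biased and macrophage groups hold most of the filled circles.

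The genes around the members on the chromosome were read from the same fit. Of 5 tested genes starting within 500 kb of Fmo1, Fmo2 or Fmo4, 0 were called by edgeR (0 at an unadjusted p under 0.05, and 0 by DESeq2), with a median log2 fold change of 0.11. Of 8 tested neighbours of Fmo5, 0 were called by edgeR (1 at an unadjusted p under 0.05, and 1 by DESeq2), with a median of -0.14. The gene called by DESeq2 was the chromatin remodeller gene Chd1l (log2 fold change -0.65 ± 0.17, edgeR adjusted p = 0.0512), named after its values were seen. It was also called by edgeR with library totals alone (adjusted p = 0.0325), without flox replicate 1 (0.0394) and without flox replicate 3 (0.0414).

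Genes with the most similar course across libraries were sought among 12449 tested genes, by the Pearson correlation of log2 CPM over the 10 libraries after each group's mean was subtracted. They are the highest of many and are given as a description. Fmo5 was closest to Acss3 (r = 0.98), an acyl-CoA synthetase of mitochondria and a relative of the targeted gene, then to Tmem64 (0.97) and the glucuronosyltransferase gene Ugt1a9 (0.96), which shares exons with other genes of its locus. Acss3 itself fell from 23.0 ± 15.2 CPM to 7.08 ± 1.67 (edgeR adjusted p = 0.0315). Both Acss3 and Fmo5 varied more in flox than in HKO (SD of log2 CPM of Fmo5 0.38 and 0.15), so their r rests more on the flox libraries. Tnfaip8l1, the gene closest to Fmo1, went the other way from Fmo1 between the groups and rose from 32.0 ± 3.39 CPM to 52.2 ± 3.81 (edgeR adjusted p = 0.00918). For Fmo1 the genes given are Tnfaip8l1 (0.95) and Raet1e (0.93). For Fmo2 the closest were Slc8a1 (0.89), Kif3a (0.89) and Ncstn (0.88), and for Fmo4 Rxrg (0.96), Irak1bp1 (0.95) and Snapin (0.95). No gene was among the 3 closest of more than 1 member.

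The start regions of Fmo5 and Fmo2, on different chromosomes and with lower means in HKO, are shown beside that of Fmo4, whose means were nearly equal. They are from RefSeq on GRCm38.p6, 250 bases before to 50 bases after a start site. The Fmo5 window is chr3:97628769-97629068 on the plus strand. The Fmo2 window shown is chr1:162898444-162898743 and that of Fmo4 chr1:162812500-162812799, both on the minus strand. Fmo2 also has another window, further upstream, which is not shown. The table of start regions had these 3 members. Capitals mark matches, on either strand, to TATAAA of core promoters, CCAAT of factor NF-Y, AGGTCA of nuclear receptors, TTCNNNGAA of STAT factors and the E-box CACGTG, and no match overlapped another.
Fmo5: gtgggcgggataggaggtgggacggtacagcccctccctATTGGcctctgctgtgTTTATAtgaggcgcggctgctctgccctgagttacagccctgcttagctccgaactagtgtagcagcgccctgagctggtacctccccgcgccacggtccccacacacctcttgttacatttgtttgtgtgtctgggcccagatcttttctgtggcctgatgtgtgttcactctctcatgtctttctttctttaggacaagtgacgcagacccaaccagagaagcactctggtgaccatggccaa
Fmo2: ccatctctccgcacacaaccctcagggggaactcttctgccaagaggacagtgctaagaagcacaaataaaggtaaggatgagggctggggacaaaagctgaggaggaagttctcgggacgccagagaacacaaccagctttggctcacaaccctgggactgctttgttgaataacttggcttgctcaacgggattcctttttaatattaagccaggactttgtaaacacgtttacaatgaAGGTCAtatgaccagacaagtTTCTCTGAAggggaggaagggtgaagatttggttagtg
Fmo4: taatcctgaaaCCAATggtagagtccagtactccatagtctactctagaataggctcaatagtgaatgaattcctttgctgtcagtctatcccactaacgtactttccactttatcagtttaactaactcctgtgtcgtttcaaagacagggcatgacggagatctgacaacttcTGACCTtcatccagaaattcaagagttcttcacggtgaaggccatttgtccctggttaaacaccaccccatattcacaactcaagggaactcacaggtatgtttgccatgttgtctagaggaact
Counting the start site's first base as 0, Fmo5 had CCAAT at -211 and TATAAA at -195, both on the other strand. The Fmo5 window ends with the first bases of its coding sequence, so this start site lies close to the start codon. Whether liver transcripts begin at the start sites used was not tested. Fmo2 had AGGTCA at -9 and the STAT pattern at 12 in the window shown. Its other start region, chr1:162898709-162899008 and so mostly upstream of that window, had no match to any of the 5. Fmo4 had CCAAT at -239 and, on the other strand, AGGTCA at -75. Among all 32851 start regions, TATAAA was found in 13.6%, CCAAT in 37.4%, AGGTCA in 16.3%, TTCNNNGAA in 8.3% and CACGTG in 7.2%. A match is a description of the letters only, and these data hold no measure of binding.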

How the data were processed

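The 10 liver RNA libraries were made with the VAHTS Universal kit named in the labels' protocols. The authors deposited unnormalized read counts for each gene, and the table also gave each gene's length. The submitters' processing notes name DESeq2 and mm10. For the aligner, counter, annotation and strand setting nothing is given in the sources used here.

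The HKO and flox counts were set against each other with edgeR 4.0.16 (R 4.3.3), using its quasi-likelihood test, two-sided, with TMM scaling and filterByExpr, Benjamini-Hochberg adjusted over 14068 tested genes, threshold 0.05. Log2 fold changes are HKO over flox, and each SE is the log2 fold change over the root of its F statistic. Log2 CPM used a prior count of 2. P-values set the difference between the groups against the spread between these libraries, which may in part be technical. Between libraries of a group, chi-square per degree of freedom was at least 24.6, so none looked like 1 library deposited again.

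Members, gene lists and the rule for named genes (the members, Acss2, the first and up to 3 called genes of each list, and the 3 likest genes) were chosen with earlier results of these data known. Some items the rule names are not reported here. Alternatives were DESeq2 1.42.0, RLE factors, library totals, no filter, a replicate block and leaving out each library. Coding sequences were aligned with Biopython 1.88.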

Additional observations from a re-analysis of the deposited data

Results flagged for a closer look

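Among 52 sets of 5 values (levels of the members and named genes in each group, and the members' shares), 4 held a library far from the others, where chance gives about 1 in 20, and none of the 4 was a member. Nqo1 stood at 17.75 CPM in flox replicate 2. Cyp2d9 stood at 1059 CPM in flox replicate 4, Cyp7b1 at 362.8 CPM in HKO replicate 4 and Elovl3 at 453.3 CPM in HKO replicate 5. Cyp2d9 belongs to a cluster of similar genes, so its count is uncertain.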

How the results depend on the processing

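The count of called genes, 561 with all libraries, was 1021 by DESeq2 and ran from 289 (without HKO replicate 4) to 673 (without flox replicate 3) with 1 library left out, at 361, 335 and 354 without flox replicate 5 and HKO replicates 1 and 5. The count of called Fmo members was 2 with all libraries, where 3.99% of tested genes were called. It was 1 without a filter on low counts (2.93%) and 1 with the replicate block (3.18%). With 1 library left out it ran from 0 to 3. It was 0 without flox replicate 5 (2.54%) or HKO replicate 4 (2.01%), and 3 without flox replicate 4 (3.83%). The cause was not tested. The shared replicate numbers were not treated as pairs in the main fit. Deviations of same-numbered libraries correlated from -0.12 to 0.24, and 1 of 10 libraries matched best with its own number. Such values cannot show that no pairing existed. With the block, 448 genes were called. All log2 fold changes of the members moved by less than 1 SD between replicates, and those of Fmo1, Fmo2 and Fmo5 were below 0 in all 15 alternatives. The count of called pathway and neighbour genes, 16, was between 12 and 21. Library totals alone moved the median log2 fold change of all genes from 0.01 to -0.099, with 96 genes higher and 571 lower. Of the per-length shares, that of Fmo5 in flox was 67.7% and that of Fmo1 28.7% with the longest GENCODE transcript. The length of the longest coding transcript was tried after seeing the data. Fmo4 had 69 to 263 counts per library and Fmo2 184 to 651.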

Other observations

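Along the liver lobule, 1 of 7 markers of hepatocytes around the central vein fell, the ammonium transporter gene Rhbg (2.54 ± 1.11 to 0.964 ± 0.182 CPM, edgeR adjusted p = 0.0289), a call lost with the replicate block and in 7 of the fits without 1 library. Of 6 cholangiocyte markers 0 were called (0 at an unadjusted p under 0.05 in edgeR, and 0 by DESeq2), of 5 tested lymphocyte markers 1 fell, Igkc, a call lost in 7 of the fits without 1 library (flox replicates 3, 4 and 5 and HKO replicates 1, 2, 4 and 5), and the 1 tested adipocyte marker, Cidec, had a log2 fold change of -0.56 ± 0.52. Rhbg, Igkc and Cidec were named after their values were seen.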
